A study of Mus musculus with 4 samples.

Results

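The 87 genes described here encode subunits and assembly factors of the oxidative phosphorylation complexes, and their array signals were compared between B cells of miR-146a transgenic (TG) mice and B cells of wild type (WT) mice. The rule that picks the members reads gene symbols and no measured values: names starting with Ndufa, Ndufb, Ndufc, Ndufs or Ndufv for complex I, Sdha to Sdhd for complex II, Uqcr for complex III, Cox4 to Cox8 for complex IV and Atp5 for complex V. They are 87 of the 17097 genes that have at least 1 probe set naming a single gene, with 42 genes in complex I, 4 in complex II, 7 in complex III, 17 in complex IV and 17 in complex V. The 87 genes have 148 probe sets, and each gene is represented by the probe set with the highest mean signal over the 4 arrays. Genes without a single-gene probe set here, such as Ndufa13, Ndufb6, Ndufs5, Uqcrh and Cox7b, and the subunits encoded in mitochondrial DNA, which carry other names, were not analysed here.

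The 4 samples came from male Balb/C mice aged 6 to 8 weeks, of which 2 carried the miR-146a transgene and 2 were wild type, with 1 array per mouse. B cells were taken from lymph nodes by removing the other cells magnetically, so the B cells themselves carried no antibody, and dead cells were depleted. The promoter that drives the transgene, and therefore the cells that express it, was not given in the sources used here. RNA was hybridised to Affymetrix mouse arrays, and all values below are the deposited signals on the log2 scale or differences between them (TG minus WT), so that a difference of -1 is a 2-fold lower signal.

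Complexes I to IV form the respiratory chain of the inner mitochondrial membrane. Electrons enter from NADH at complex I or from succinate at complex II, pass through ubiquinone to complex III and through cytochrome c to complex IV, and the protons pumped on the way drive ATP synthesis at complex V. Resting B cells draw much of their ATP from this route, and activated B cells raise it together with glycolysis. miR-146a is a microRNA induced by NF-kB signalling that targets the signalling adaptors Traf6 and Irak1. Its mature 5p strand is printed because it is the molecule that differs between the genotypes. It lies at chr11:43374435-43374456 (GRCm38.p6, minus strand) and was taken from RefSeq, with the seed, bases 2 to 8, in capitals.
mmu-miR-146a-5p: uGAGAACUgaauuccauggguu

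Nuclear genes of the respiratory chain are known for promoters bound by NRF-1, by the ETS family factor GABP and by YY1. RefSeq windows of 250 bases before to 50 bases after the annotated start (GRCm38.p6) were found for 70 of the 87 genes, 75 windows in all, and were searched on both strands for GCATGCGC (NRF-1), CCGGAAG (ETS, GABP) and AAGATGGC (YY1). The NRF-1 letters were in 12 of the 75 windows (16%), against 2.71% of all 32851 windows of that length. The ETS letters were in 17 windows (22.7%), against 8.86% of all windows, and the YY1 letters in 11 (14.7%), against 2.75%. In all, 33 member windows (44%) held at least 1 of the motifs, against 13.3% of all windows. A match is a description of the letters and not a binding site. The 4 windows below all hold motif letters. A pair belongs to complex I core genes lower on both TG arrays (Ndufs8, Ndufs7). The others belong to the complex I gene with the highest TG minus WT difference (Ndufaf4) and to the brightest member (Cox6a1). The remaining core genes were also lower on both TG arrays. Of these, Ndufs3 has the ETS letters in its window, Ndufv1 and Ndufv2 have no motif, and no window was found for Ndufs1. Capitals mark the motif letters on either strand, and the NRF-1 letters can match both strands at overlapping positions. Ndufs8 has the ETS letters (chr19:3912725-3913024, minus strand), Ndufs7 the YY1 letters (chr10:80249199-80249498, plus strand), Ndufaf4 the NRF-1 letters in a pair of places (chr4:24897833-24898132, plus strand), and Cox6a1 the NRF-1 and ETS letters (chr5:115348909-115349208, minus strand).
Ndufs8: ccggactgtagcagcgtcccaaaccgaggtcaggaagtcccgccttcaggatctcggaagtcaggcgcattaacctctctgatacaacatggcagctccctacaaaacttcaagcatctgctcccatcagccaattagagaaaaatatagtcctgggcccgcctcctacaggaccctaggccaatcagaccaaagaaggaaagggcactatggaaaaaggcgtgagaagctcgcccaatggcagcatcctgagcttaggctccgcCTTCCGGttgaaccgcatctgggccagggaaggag
Ndufs7: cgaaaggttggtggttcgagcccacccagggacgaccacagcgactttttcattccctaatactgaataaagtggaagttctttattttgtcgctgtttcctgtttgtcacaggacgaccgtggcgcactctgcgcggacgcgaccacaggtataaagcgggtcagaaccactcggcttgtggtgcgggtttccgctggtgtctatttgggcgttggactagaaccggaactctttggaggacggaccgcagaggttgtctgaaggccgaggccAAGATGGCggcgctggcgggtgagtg
Ndufaf4: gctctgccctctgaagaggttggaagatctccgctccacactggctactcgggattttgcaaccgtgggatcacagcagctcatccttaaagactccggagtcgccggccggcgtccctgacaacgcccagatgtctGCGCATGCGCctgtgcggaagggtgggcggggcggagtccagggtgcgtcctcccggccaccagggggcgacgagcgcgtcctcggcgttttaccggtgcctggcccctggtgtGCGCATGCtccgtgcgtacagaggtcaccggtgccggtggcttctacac
Cox6a1: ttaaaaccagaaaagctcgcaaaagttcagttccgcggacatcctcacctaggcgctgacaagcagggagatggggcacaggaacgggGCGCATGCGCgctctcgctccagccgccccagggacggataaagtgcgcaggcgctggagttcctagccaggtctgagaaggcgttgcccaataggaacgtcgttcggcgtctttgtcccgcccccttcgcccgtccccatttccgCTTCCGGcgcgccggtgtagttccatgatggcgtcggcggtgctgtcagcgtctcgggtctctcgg

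The arrays differed in ways that touch every comparison below. The array of TG mouse 1 had a median signal of 4.48 and an upper quartile of 6.13, while the other 3 arrays had medians of 4.59 to 4.61 and upper quartiles of 6.51 to 6.55. Its actin probe sets differed by 0.47 between the 3' end and the middle of the transcript, against 0.14 to 0.16 on the others. The Gapdh probe sets did not set it apart that way. Their 3' minus 5' difference was 0.02 on TG mouse 1, -0.20 on TG mouse 2, and 0.08 and 0.09 on WT mice 1 and 2. The spiked-in hybridisation controls (9 probe sets for bioB, bioC, bioD and cre), which contain no mouse RNA, were lower on both TG arrays than on the WT arrays, by a median difference of -0.52 on TG mouse 1 and -0.25 on TG mouse 2. The part of these array differences in the results was not tested.

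The labelled cell type was checked against marker genes. All 8 B cell markers measured were lower in both TG mice than in both WT mice, with mean signals over the list of 8.89 and 8.99 in TG mice and 9.81 and 9.85 in WT mice and a median difference of -0.98. All 9 neutrophil markers were higher, with mean signals of 6.73 and 7.05 in TG mice and 4.90 and 4.93 in WT mice (median 2.19). Of 8 T cell markers, 7 were higher (median 0.38), with Cd8a (1.14) and Cd8b1 (0.74) among them. The exception was Cd4, which was lower in both TG mice (-0.79). Among the other lists, 5 of 7 monocyte and macrophage markers, 3 of 6 natural killer markers and 3 of 4 erythroid and platelet markers were higher in both TG mice. In the other direction, 1 natural killer marker (Gzma, -0.96) and 2 of 5 stromal and endothelial markers (Pecam1, -0.36, and Cdh5, -0.14) were lower in both TG mice, and 0 of those 5 were higher. No marker of the B cell list was absent, Pax5 alone had a mean signal under 6 in WT mice, and T cell transcripts were also bright on all 4 arrays. The part of other cell types in the results below was not tested, and in such bulk samples fewer B cells and less RNA per B cell cannot be told apart.

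No gene of the 5 complexes passed an adjusted p of 0.05 between TG and WT mice (limma, Benjamini-Hochberg adjustment over all 45037 probe sets), where 0.0466% of all probe sets did. The smallest adjusted p was 0.193, for Ndufs8. Without adjustment, 5 of the 87 genes had a limma p under 0.05, all lower in TG mice, or 5.75% against 13.7% of all probe sets: Ndufs8, Ndufv1, Atp5e, Ndufs5-ps and Ndufa11. The standard errors of the differences ran between 0.10 and 0.27, and the 95% interval lay within 1 log2 unit of 0 for 84 of 87 genes. The exceptions reached below -1 and were Ndufa5, Ndufa12 and Ndufs5-ps. For 1 gene taken alone, the exact two-sided permutation test over 2 TG and 2 WT mice can reach no p lower than 0.333.

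Most members were nevertheless lower in TG mice. The difference was negative for 75 of 87 genes, against 10299 of all 17097 genes and 2189 of the 2983 genes with a mean signal of 8 or more. The median was -0.18, against -0.05 over all genes. After quantile normalization the difference was negative for 57 of the 87, against 7811 of all genes and 1488 of the 2983. Both TG mice lay below both WT mice for 41 genes (47.1%), where the same held for 31.4% of all probe sets, and for 31.4% of all genes by their representative probe sets. Both TG mice lay above both WT mice for 2 genes, Cox8a and Cox8c, where that held for 17.7% of probe sets and 17.7% of genes. The higher count depended on scaling and on TG mouse 1. After quantile normalization 35 members (40.2%) were lower and 15 (17.2%) higher without overlap. The shares were then 24.5% and 29.5% of all genes, and 32.9% and 33.9% of bright genes. Without TG mouse 1 the higher count was 34, where 43% of all genes and 46.7% of bright genes were higher. Members are mostly bright, so they were also set beside bright genes alone, a floor chosen after seeing the data. Among the 72 members with a mean signal of 8 or more, 37 (51.4%) were lower without overlap and 1 was higher, against 43.3% and 13.7% of the 2983 genes of that brightness. Their median was -0.19, against -0.14 for those genes, so much of the distance from the all-gene median was shared with other bright genes.

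**Figure D1:**
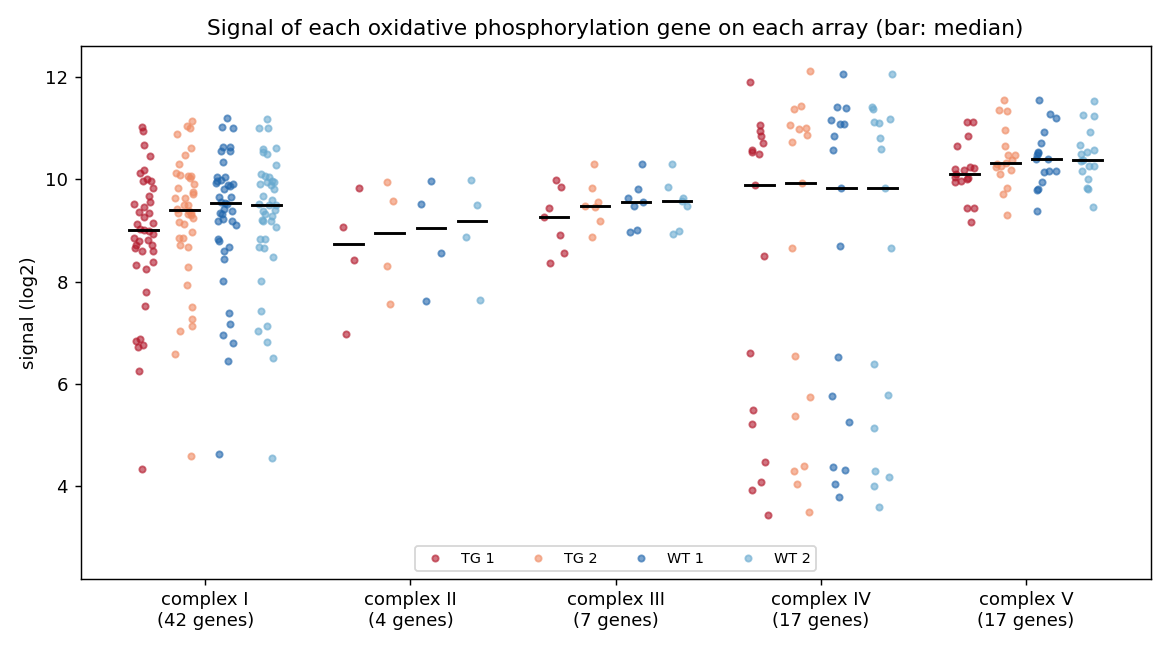
Log2 signal of each of the 87 genes (points) on each array, grouped by complex, with TG mice 1 and 2 left of WT mice 1 and 2 and a bar at the median. The median over all 87 genes was 9.35 in TG mouse 1 and 9.70 in TG mouse 2, against 9.80 and 9.81 in WT mice 1 and 2.

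Complex I, the NADH dehydrogenase, had a median difference of -0.21 over its 42 genes, against -0.14 for bright genes. Where 31.4% of all genes and 43.3% of bright genes were lower without overlap, 21 of the 42 (50%) were. Where 17.7% of all genes and 13.7% of bright genes were higher without overlap, complex I had 0. The 6 measured genes of its catalytic core, which bind the flavin and the iron-sulphur clusters or form the quinone site beside them, were all lower in both TG mice, with a median of -0.37. Ndufs8, an iron-sulphur subunit near the quinone site, had signals of 9.96 and 10.06 in TG mice 1 and 2, against 10.55 and 10.48 in WT mice 1 and 2. Both TG values lay well below both WT values, and the difference was -0.51 (SE 0.10, 1.42-fold lower, limma adjusted p 0.193). All 4 of its probe sets were lower without overlap, with differences of -0.51, -0.59, -0.39 and -0.18.

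Ndufv1, which carries the flavin and the NADH site, had signals of 8.65 and 8.85 in TG mice, against 9.22 and 9.19 in WT mice, a difference of -0.45 (SE 0.12, limma adjusted p 0.249). Ndufs7, which holds the last iron-sulphur cluster before ubiquinone, had 9.27 and 9.70 in TG mice, against 9.91 and 9.89 in WT mice, a difference of -0.42. TG mouse 1 was the lower of the TG pair for both genes, and by more for Ndufs7. Ndufs3, a structural core subunit, had 9.33 and 9.63 in TG mice, against 9.80 and 9.80 in WT mice, a difference of -0.32. Ndufs1, the largest iron-sulphur subunit, had 7.80 and 7.92 in TG mice, against 8.01 and 8.01 in WT mice, a difference of -0.15. For Ndufv2, the partner of Ndufv1, the values almost met: 10.003 and 10.031 in TG mice, against 10.036 and 10.051 in WT mice, a difference of -0.03, while its other probe set gave -0.39. After quantile normalization, when 24.5% of all genes were lower without overlap, 4 of the 6 core genes were, and Ndufs1 (0.02) and Ndufv2 (0.11) had positive differences.

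**Figure D2:**
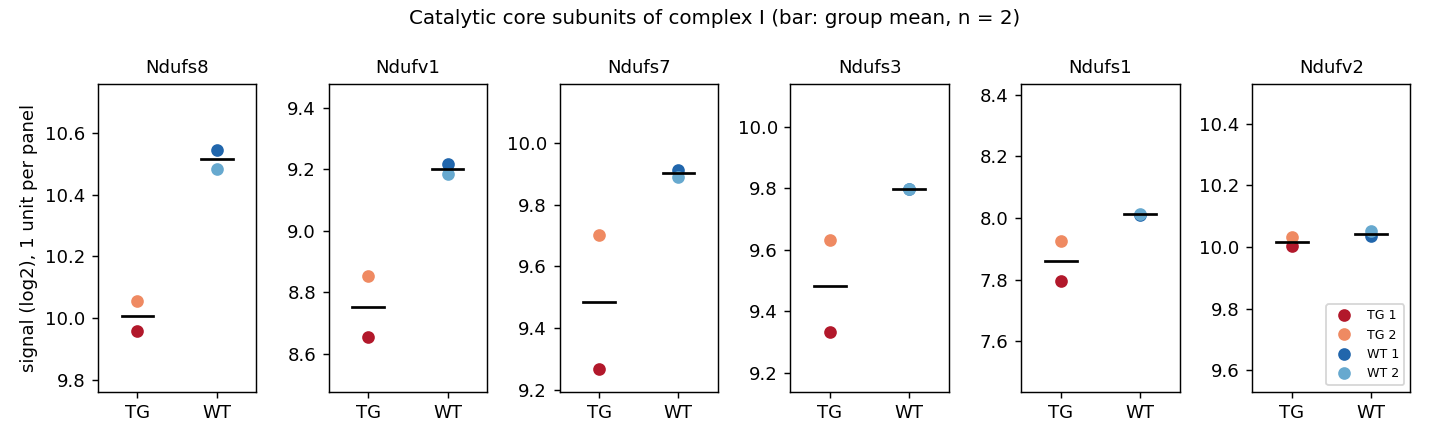
Log2 signal of the 6 measured catalytic core genes of complex I in each TG mouse (left) and WT mouse (right), with a bar at each group mean (n = 2) and 1 log2 unit per panel. Both TG values lie below both WT values in every panel, widely for Ndufs8 (-0.51) and barely for Ndufv2 (-0.03).

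The accessory subunits surround that core and are needed for its assembly and stability. Of the 9 Ndufb genes, which belong to the membrane arm, all 9 had negative differences, between -0.33 and -0.14. Of those 9, 5 (55.6%) were lower without overlap. Of the 16 Ndufa and Ndufc genes, 14 had negative differences and 7 (43.8%) were lower without overlap. Among the 2983 bright genes, 2189 had negative differences and 43.3% were lower without overlap. Of all genes, 31.4% were lower without overlap. Ndufa11, a membrane arm subunit, had 8.71 and 8.97 in TG mice, against 9.17 and 9.20 in WT mice, a difference of -0.34 (SE 0.13, limma adjusted p 0.359). Ndufa5, named after its values were seen because it was the lowest of all members, had 7.52 and 8.28 in TG mice, against 8.45 and 8.48 in WT mice, a difference of -0.56. The TG mice differed from each other by more than TG mouse 2 did from the WT mice, and the SE was 0.27. Ndufa4, now counted with complex IV by many authors, had 10.46 and 10.89 in TG mice, against 10.63 and 10.61 in WT mice, so the TG values lay on both sides of the WT values. Its paralogue Ndufa4l2, known as a hypoxia-induced gene, had 4.34 and 4.60 in TG mice, against 4.64 and 4.56 in WT mice, and the groups overlapped.

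Among the remaining 4 Ndufs and Ndufv genes, the probe set annotated to Ndufs5-ps had 8.71 and 9.25 in TG mice, against 9.53 and 9.50 in WT mice, a difference of -0.54 (SE 0.20, limma adjusted p 0.358). Ndufs5-ps is a pseudogene of Ndufs5, and signal from the pseudogene and from Ndufs5 itself cannot be told apart on it. The 7 assembly factors (Ndufaf genes), which help to build complex I and are not part of it, had a median of -0.05, against -0.24 for the 35 subunit genes. Ndufaf4, an early assembly factor, had 8.59 and 9.12 in TG mice, against 8.59 and 8.67 in WT mice, and its difference of 0.22 was the highest of all members. Only TG mouse 2 lay above both WT mice. Ndufaf1 and Ndufaf5 had differences of 0.08 and 0.06, with the groups overlapping.

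Complex II, the succinate dehydrogenase shared with the TCA cycle, had a median of -0.27 over its 4 genes. Of these, 3 (75%) were lower without overlap, against 31.4% of all genes and 43.3% of bright genes. Sdha, the flavin subunit, had 9.06 and 9.57 in TG mice, against 9.52 and 9.50 in WT mice, so TG mouse 2 lay above both WT mice. Sdhb, the iron-sulphur subunit, had 9.84 and 9.94 in TG mice, against 9.97 and 9.99 in WT mice, a difference of -0.09. The membrane anchors had larger differences than the catalytic pair. Sdhc had 8.42 and 8.31 in TG mice, against 8.56 and 8.86 in WT mice, a difference of -0.35 (SE 0.14, limma adjusted p 0.387), and was the only gene of this complex with TG mouse 2 lower than TG mouse 1. Sdhd had 6.98 and 7.55 in TG mice, against 7.62 and 7.63 in WT mice, a difference of -0.36 (SE 0.21, limma adjusted p 0.509).

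Where 31.4% of all genes and 43.3% of bright genes were lower without overlap, 4 of 7 (57.1%) were in complex III. This complex, the cytochrome bc1 complex, had a median of -0.19. The Rieske iron-sulphur protein gene Uqcrfs1 had 9.99 and 9.82 in TG mice, against 9.80 and 9.85 in WT mice, and was its only gene with a positive difference (0.08). The core protein gene Uqcrc1 had 9.43 and 9.48 in TG mice, against 9.47 and 9.62 in WT mice, and Uqcrc2 had 9.85 and 10.29 in TG mice, against 10.30 and 10.30 in WT mice. Of these 3 genes, Uqcrc2 alone was lower without overlap, and TG mouse 2 differed from WT by 0.02 or less there. The 4 small subunits had a median of -0.26. Uqcr11 had 8.37 and 8.86 in TG mice, against 8.98 and 8.99 in WT mice, a difference of -0.37, and Uqcr10 differed by -0.19. Uqcrq, which had 8.92 and 9.46 in TG mice, against 9.54 and 9.48 in WT mice, was the only member whose probe sets differed from each other by over 0.5. Their differences ran between -0.33 and 0.29, and the probe sets with positive differences had the dimmer signals.

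Complex IV, cytochrome c oxidase, had the median nearest to 0, at -0.10 over 17 genes. Where 31.4% of all genes and 43.3% of bright genes were lower without overlap, 6 (35.3%) were in complex IV. Where 17.7% and 13.7% were higher without overlap, complex IV had 2 (11.8%). The nuclear subunits that surround its mitochondrially encoded centre have widely expressed and tissue-restricted forms. Of the 10 widely expressed genes 4 (40%) were lower and 1 (10%) was higher without overlap, with a median of -0.17. Cox4i1 had 11.06 and 11.37 in TG mice, against 11.41 and 11.40 in WT mice, a difference of -0.19. Cox5a had 10.93 and 11.43 in TG mice, against 11.40 and 11.37 in WT mice, and Cox5b had 10.83 and 10.98 in TG mice, against 11.08 and 11.12 in WT mice, with differences of -0.20 and -0.19. Cox5a overlapped between the groups because TG mouse 2 lay above both WT mice, while Cox5b did not overlap. The other probe sets of Cox5a, with mean signals of 10.84 and 10.74, gave differences of -0.016 and 0.006. Cox7a2, the widely expressed form of subunit 7a, had 10.57 and 11.05 in TG mice, against 11.15 and 11.18 in WT mice, and its difference of -0.35 (SE 0.18, limma adjusted p 0.47) was the lowest of the complex. Cox6b1 differed by -0.23, and Cox6a1, the brightest member, by -0.05, with 11.90 and 12.11 in TG mice and 12.05 and 12.06 in WT mice.

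Cox8a had 9.88 and 9.93 in TG mice, against 9.82 and 9.83 in WT mice, a difference of 0.08 (SE 0.10, limma adjusted p 0.738). It was higher without overlap, yet its difference was smaller than its standard error. Cox7a2l, which takes part in supercomplexes of complexes III and IV, differed by 0.04. The 7 tissue isoforms had mean signals of 3.58 to 6.52. Among them Cox8c, a testis form, had 6.60 and 6.54 in TG mice, against 6.54 and 6.39 in WT mice, and Cox7a1, a heart and muscle form, had 3.44 and 3.51 in TG mice, against 3.79 and 3.59 in WT mice. Their differences were 0.11 and -0.21, and the Cox7a1 probe set lay below the filter for dim probe sets (4.10). Cox4i2 (0.11), Cox6a2 (-0.16), Cox6b2 (-0.07), Cox7b2 (-0.05) and Cox8b (0.09) had differences within 0.2 of 0.

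Complex V, the ATP synthase, had a median of -0.18 over 17 genes, of which 7 (41.2%) were lower and 0 higher without overlap. All 17 are bright, and that share was no larger than the 43.3% of bright genes. The differences in the catalytic head were near 0. Atp5b, the catalytic beta subunit, had 10.10 and 10.29 in TG mice, against 10.17 and 10.26 in WT mice, and Atp5a1, the alpha subunit, had 10.18 and 10.18 in TG mice, against 10.13 and 10.25 in WT mice. Atp5c1, the gamma subunit of the rotating shaft, had 11.12 and 11.36 in TG mice, against 11.27 and 11.25 in WT mice. All 3 had differences between -0.02 and -0.01, and the groups overlapped. The remaining shaft subunits were lower without overlap: Atp5d (delta) had 10.01 and 10.26 in TG mice, against 10.40 and 10.38 in WT mice, a difference of -0.25. Atp5e (epsilon) had 10.04 and 10.31 in TG mice, against 10.53 and 10.57 in WT mice, a difference of -0.37 (SE 0.13, limma adjusted p 0.338).

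In the membrane sector of complex V, Atp5g1, Atp5g2 and Atp5g3 encode the same c ring protein and differed by -0.18, -0.25 and -0.20. Atp5pb, of the peripheral stalk, had 9.96 and 10.11 in TG mice, against 9.95 and 10.01 in WT mice, and was the only gene of complex V with a positive difference (0.05). The other 3 stalk genes had negative differences. All 5 of the other membrane genes did too, including Atp5k (-0.19) and Atp5md (-0.23). Of the 5, 2 (40%) were lower without overlap, against 43.3% of bright genes.

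At the median, the TG mice differed from each other by more than the genotypes did. TG mouse 1 lay below both WT mice for 79 of 87 genes, where 61.8% of all genes and 80.4% of bright genes did, and above both for 5, where 27.2% and 14.6% did. TG mouse 2 lay below both for 42 genes, where 37.7% of all genes and 44.4% of bright genes did, and above both for 34, where 43% and 46.7% did. The median distance between the TG mice was 0.31, against 0.03 between the WT mice. Set against the WT mean, the median member differed by -0.35 in TG mouse 1 and by -0.01 in TG mouse 2. Over the 2983 bright genes these medians were -0.29 and 0.01, so TG mouse 1 was lower for bright genes in general. By complex, TG mouse 1 had medians of -0.42, -0.37, -0.41, -0.22 and -0.30 for complexes I to V, and TG mouse 2 had -0.02, -0.06, -0.05, 0.02 and 0.01. The catalytic core of complex I had medians of -0.51 in TG mouse 1 and -0.18 in TG mouse 2, and both mice lay below both WT mice for all 6 genes.

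**Figure D3:**
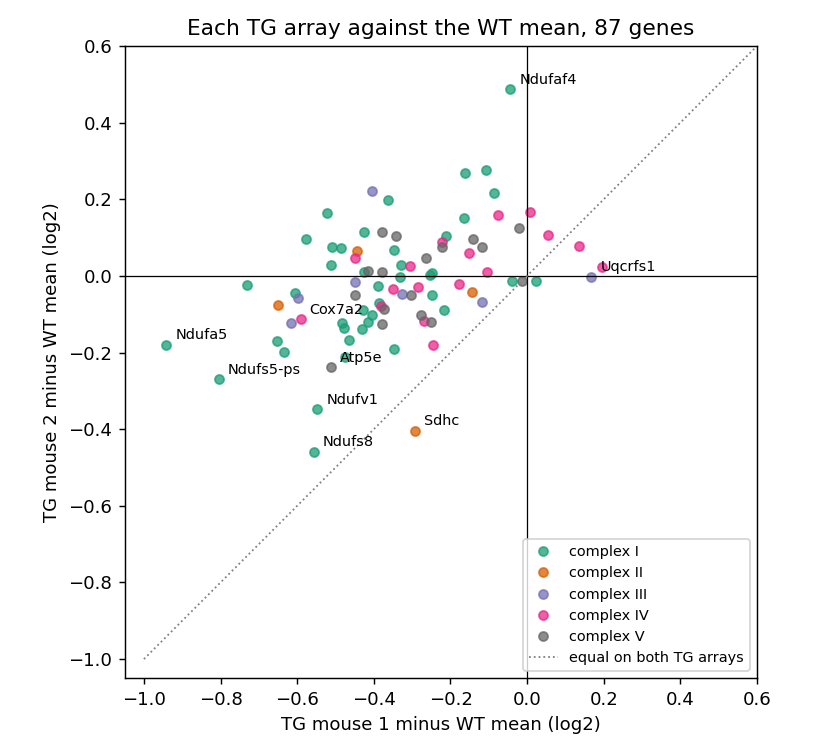
Each of the 87 genes by its log2 difference from the WT mean in TG mouse 1 (horizontal axis) and in TG mouse 2 (vertical axis), coloured by complex, with a dotted line where both are equal. TG mouse 1 was lower than TG mouse 2 for 82 of 87 genes, against 12680 of all 17097 genes and 2777 of the 2983 bright genes. Ndufs8, with -0.51 on average, is low in both TG mice.

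Fits that leave out 1 TG array show how far the calls rest on single mice. Such a fit takes the lone TG array to vary like the WT pair. Without TG mouse 1, 2 members passed an adjusted p of 0.05 (limma, Benjamini-Hochberg), against 9.19% of all probe sets: Ndufs8 was lower (-0.46, adjusted p 0.0325) and Ndufaf4 was higher (0.49, adjusted p 0.0304). Without TG mouse 2, 56 members passed, all lower, where 32.9% of all probe sets and 55.2% of bright genes passed in that direction. Among the 72 bright members, 52 (72.2%) did. Ndufs8 passed in both fits (adjusted p 0.00563 without TG mouse 2). Quantile normalization, which gives all 4 arrays the same distribution of signals, brought the median difference to -0.04 for the members, and to 0.00 for bright genes. No member passed after it, where 1.93% of all probe sets did, and Ndufs8 then differed by -0.38 (adjusted p 0.151).

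**Figure D4:**
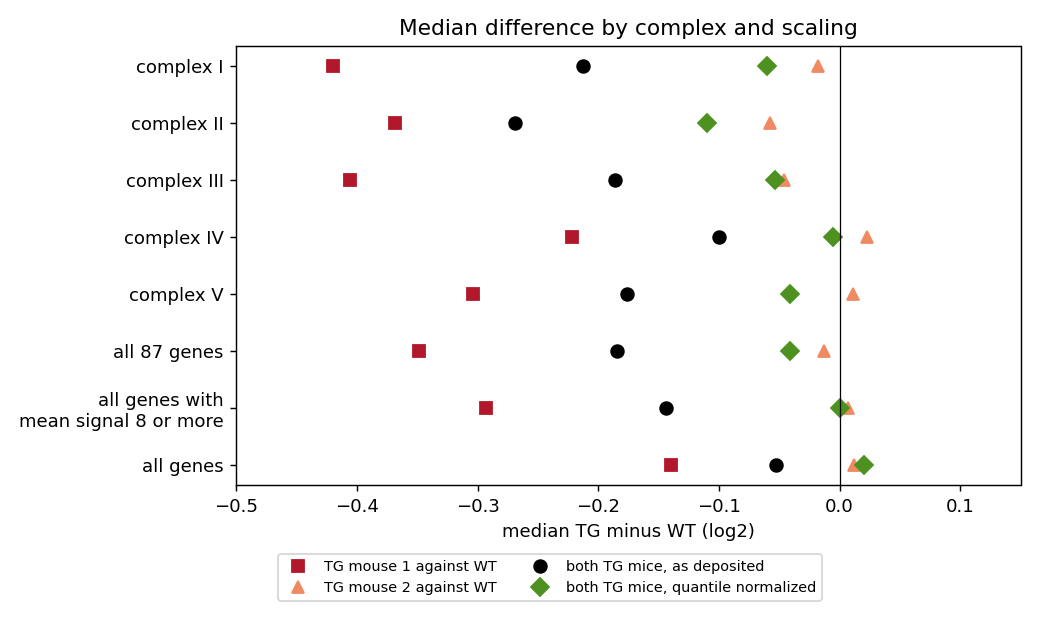
Median log2 difference (TG minus WT) for each complex, for all 87 genes and for all genes, for each TG mouse alone against the WT mean and for both TG mice before and after quantile normalization. TG mouse 1 lies lowest in every row (-0.35 for the 87 genes), TG mouse 2 lies near 0 (-0.01), and quantile normalization moves the median of the 87 genes to -0.04.

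Several genes could be checked on more than 1 probe set. Of the 41 members with several, 31 had the same sign of difference on all of them and 10 did not, and the median spread between probe sets of a gene was 0.158. In 6 of those 10 genes at least 1 of the probe sets had a mean signal under 6.

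Genes that build, feed or surround the complexes were compared through lists chosen by function. The shares to read their counts against are those of all genes, 31.4% lower and 17.7% higher without overlap, and of bright genes, 43.3% and 13.7%. For counts after quantile normalization they are 24.5% and 29.5% of all genes, and 32.9% and 33.9% of bright genes. For the mitochondrial ribosomal proteins, which translate the mitochondrially encoded subunits, 33 of 73 (45.2%) were lower and 0 higher without overlap, with a median of -0.23. Of these 73 genes, 29 (39.7%) were lower and 18 (24.7%) higher without overlap after quantile normalization, with a median of -0.05. The cytosolic ribosomal proteins had 16 of 71 (22.5%) lower and 9 higher, with a median of -0.03 that was 0.01 after quantile normalization. Of the 71, 11 (15.5%) were then lower and 19 (26.8%) higher without overlap. No gene of these or of the following lists passed an adjusted p of 0.05 in the deposited values (limma, Benjamini-Hochberg), and Rpl14 did after quantile normalization (0.92, adjusted p 0.0251). Of 35 assembly factors outside the naming rule, 15 (42.9%) were lower and 3 higher without overlap (median -0.23). Among them were Nubpl (-0.64), which delivers iron-sulphur clusters to complex I, and Pet100 (-0.41), a complex IV assembly factor. Of the 35, 7 (20%) were lower and 9 (25.7%) higher without overlap after quantile normalization (median -0.02). Of 17 TCA cycle genes 7 (41.2%) were lower and 1 higher (median -0.14), including Cs, citrate synthase (-0.36), and Ogdh, of the oxoglutarate dehydrogenase (-0.56). The TCA median turned to 0.03 after quantile normalization, with 9 of 17 positive. Without overlap, 8 TCA genes (47.1%) were then lower and 4 (23.5%) higher. Of 17 glycolysis genes 7 (41.2%) were lower and 2 higher (median -0.15), including Aldoc, an aldolase (-1.04). Quantile normalization left 3 glycolysis genes (17.6%) lower and 6 (35.3%) higher without overlap (median -0.03).

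Among 26 genes of mitochondrial membrane dynamics and import, 14 (53.8%) were lower and 2 higher without overlap (median -0.23), including the fusion genes Mfn2 (-0.59) and Opa1 (-0.45). Quantile normalization gave 11 of the 26 (42.3%) lower and 8 (30.8%) higher without overlap (median -0.06). Among 21 regulators of mitochondrial biogenesis, 9 (42.9%) were lower and 2 higher (median -0.15). After quantile normalization that median turned to 0.04, with 3 (14.3%) lower and 8 (38.1%) higher without overlap. Of all genes 24.5% were then lower and 29.5% higher, and of bright genes 32.9% and 33.9%. The smallest p of this list was that of Mterf3, a regulator of mitochondrial ribosome assembly, which was higher: 8.67 and 8.71 in TG mice, against 8.28 and 8.29 in WT mice, a difference of 0.40 (SE 0.10, limma adjusted p 0.226). Gabpb1, a subunit of the GABP factor named above, had 6.50 and 6.31 in TG mice, against 6.85 and 6.93 in WT mice, a difference of -0.49. Members with the ETS letters in their window had a median difference of -0.23, and those with a window without them -0.18. With the NRF-1 letters the median was -0.12, against -0.19 without them, and with the YY1 letters -0.21, against -0.19.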

How the data were processed

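RNA of lymph node B cells from 2 TG and 2 WT mice was measured on 1 Affymetrix array each. The deposited table holds signals that are on the log2 scale, judged from its values, which run from 2.01 to 13.03 over 45141 probe sets. How the authors summarised and normalized them was not given in the sources used here, so a difference in scaling between arrays enters every TG minus WT value. The number of arrays limits the precision. The 104 control probe sets were left out, and the other 45037 were fitted with limma 3.58.1 in R 4.3.3 (lmFit, eBayes, two-sided, Benjamini-Hochberg over all 45037, threshold 0.05, 2 residual degrees of freedom), with no covariate. Gene names come from GEO's platform annotation: 28898 probe sets name 1 gene, 551 several and 15692 none. All 87 members matched RefSeq by Entrez ID. 

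The naming rule reads no measured values, but these complexes were picked for study, and the other lists chosen, with earlier results of these data known, and the subgroups within complexes, other than the complex I core and assembly factors, were set after the values were seen. Named with values are core subunits, up to 4 members per complex and direction by smallest limma p, tissue isoforms, members whose probe sets differ by over 0.5, the brightest and dimmest member of each complex, and up to 4 genes of each other list; genes named outside this rule were chosen after their values were seen. In simulated data of the same size, the fit recovered 10% of 50 probe sets changed by 1 log2 unit and 72% of 50 changed by 2, with 7 false calls of 45037. Alternatives were quantile normalization, median centring, a filter on dim probe sets, trended and robust eBayes, the mean of a gene's probe sets, an adjusted p of 0.1, the replicate block, leaving out each mouse and, added after seeing the data, bright genes alone. Figures were drawn with matplotlib 3.10.9.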

Additional observations from a re-analysis of the deposited data

How the results depend on the processing

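The count of members past an adjusted p of 0.05 (limma) was 0 under every alternative with all 4 arrays, and ran between 0 and 56 when 1 mouse was left out (2 without TG mouse 1, 56 without TG mouse 2, 0 without either WT mouse). The labels give both groups the numbers 1 and 2 without tying a TG mouse to a WT mouse, deviations of same-numbered arrays correlated at 0.0145 across probe sets, and with the replicate number as a block 0 members passed. Leaving out 1 mouse, the members lower without overlap ran between 42 and 79 and those higher between 4 and 34. Without TG mouse 2, 79 were lower, where 61.8% of all genes and 80.4% of bright genes were. Without TG mouse 1, 42 were lower and 34 higher, against 37.7% and 43% of all genes and 44.4% and 46.7% of bright genes. With all arrays the higher count was 15 after quantile normalization (17.2%, against 29.5% of all genes), beside 35 lower (40.2%, against 24.5%). It was 6 after median centring, 1 with the mean of a gene's probe sets and 1 among bright genes. The shares of all genes for median centring, for the mean of probe sets and without a WT mouse are not given here. The complex medians ran, with 1 mouse left out, between -0.42 and -0.0178 (I), -0.37 and -0.058 (II), -0.41 and -0.0461 (III), -0.22 and 0.0229 (IV) and -0.30 and 0.0111 (V), and the median of all members between -0.35 and -0.013. Quantile normalization gave -0.11 for complex II, -0.0537 for III, -0.0056 for IV and -0.0412 for V, and complex IV had -0.0459 after median centring and -0.0703 with the mean of probe sets. The median over all probe sets was -0.04 as deposited, 0.0066 after quantile normalization and 0.0094 after median centring. Of the 49 named members, 8 turned positive after quantile normalization: Atp5a1 (0.12), Atp5b (0.11), Atp5c1 (0.0875), Cox6a2 (0.0267), Ndufs1 (0.019), Ndufv2 (0.11), Sdhb (0.0578) and Uqcrc1 (0.0427). After median centring 6 did: Atp5a1 (0.0401), Atp5b (0.0321), Atp5c1 (0.0314), Cox6a1 (0.0076), Cox7b2 (0.0059) and Ndufv2 (0.0272). With the mean of probe sets Cox7a2l turned to -0.0138. Leaving out 1 mouse turned the sign of 17: Atp5a1 (-0.0729 to 0.0458), Atp5b (-0.12 to 0.0742), Atp5c1 (-0.14 to 0.0975), Atp5g3 (-0.41 to 0.0131), Atp5pb (-0.0205 to 0.13), Cox5a (-0.45 to 0.0468), Cox6a1 (-0.15 to 0.0602), Cox6b2 (-0.22 to 0.0889), Cox7a2l (-0.0755 to 0.16), Cox7b2 (-0.11 to 0.0101), Ndufa4 (-0.16 to 0.27), Ndufa4l2 (-0.25 to 0.001), Ndufaf1 (-0.11 to 0.28), Ndufaf4 (-0.0437 to 0.49), Ndufaf5 (-0.0877 to 0.22), Sdha (-0.45 to 0.0659) and Uqcrfs1 (-0.0023 to 0.17). The cause was not tested. The pseudocount alternative was not run, since the values are on a log scale.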

Other observations

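Coenzyme Q carries electrons between complexes I, II and III. Of 17 measured genes for electron carriers and ATP exchange, 8 (47.1%) were lower and 1 (5.88%) higher without overlap in TG mice (median -0.12). Those shares were 31.4% and 17.7% for all genes (median -0.05), and 43.3% and 13.7% for bright genes (median -0.14). Coq10b, which encodes a coenzyme Q binding protein, had signals of 8.83 and 8.99 in TG mice, against 7.81 and 7.86 in WT mice, a difference of 1.08 (SE 0.11, limma adjusted p 0.0935). Coq8a, an atypical kinase of coenzyme Q synthesis, had 6.15 and 6.54 in TG mice, against 7.25 and 7.26 in WT mice, a difference of -0.91 (SE 0.16, limma adjusted p 0.168). The synthesis genes Coq6 and Coq7 differed by -0.49 and -0.60. None of the 17 genes passed an adjusted p of 0.05 in the deposited values, and for each of these 4 the TG and WT values did not overlap. After quantile normalization 2 passed (limma), Coq10b (1.24, adjusted p 0.0168) and Coq8a (-0.68, adjusted p 0.0361), and the median of the 17 genes turned to 0.05, with 12 positive.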
